A study of Homo sapiens with 9 samples.

Results

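Syndecans and glypicans are the principal families of heparan sulfate proteoglycans of the cell surface, and all 10 human genes, SDC1 to SDC4 and GPC1 to GPC6, were followed here out of 60683 genes in the count files. They were selected by gene name from an earlier list that had been made with their CPM (a gene's count scaled to the library's size) in each library known. The values of these 10 genes are therefore given as a description, without p-values. Calls on them below are part of that description, and p-values are printed only for other genes of the pathway. Of the 10 genes, 8 passed the filter on low counts, and GPC3 and GPC5 did not.

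A syndecan is a transmembrane protein whose outer part carries heparan sulfate chains and whose short cytoplasmic tail binds scaffold and actin-linked proteins. A glypican is held in the outer leaflet of the membrane by a glycosylphosphatidylinositol (GPI) anchor and has no cytoplasmic part. In both families the sulfated chains bind growth factors, morphogens and matrix proteins and present them to signalling receptors and integrins. Proteases can release the outer part of a syndecan, and a lipase or a processing protease can release or cut a glypican. In gut epithelium SDC1 and SDC4 are the familiar syndecans, while SDC2 is better known from mesenchymal cells and from colorectal tumours.

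The study profiled polyadenylated RNA from cells labelled HCT-15, a human colorectal adenocarcinoma line, with wild type given as the genotype, cultured in RPMI1640 medium with 10% fetal bovine serum. There were 3 untreated libraries, 3 from an oxaliplatin-resistant line and 3 from a sorafenib-resistant line. Oxaliplatin, a platinum compound that crosslinks DNA, was given at 0.5 µM for 7 days. Its dose was stepped up to 1, 2 and 4 µM from day 10 to day 30 and held at 4 µM after that. Sorafenib, an inhibitor of RAF and receptor tyrosine kinases, is described as applied in a similar way, with no doses in the labels. By its title the series concerns inositol hexaphosphate as an aid to chemotherapy and the senescence that follows lasting stress of the endoplasmic reticulum, and no library here received inositol hexaphosphate. Nothing in the labels says that the 3 libraries of a group came from separate cultures, so the p-values below reflect no more than library-to-library spread, which may be technical. Each resistant group is a single labelled line, and the effects of resistance and of continued exposure to the drug cannot be told apart.

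The 9 libraries held 15797076 to 20936536 counts. A count of 3, the level below which a gene was treated as not detected, corresponded to 0.138 to 0.182 CPM, and limits from counts cover counting error only. The identity of the cells was set against fixed marker lists. Of 20 colorectal epithelial markers, 16 had a median under 1 CPM over the 9 libraries and 10 had no read in any library, among them CDX1, CDX2, CDH1, KRT20, CEACAM5, PHGR1 and HNF4A, so the defining colorectal genes were absent. The median of KRT8 was 618 CPM, of KRT18 278 CPM and of ELF3 221 CPM. Of 20 renal epithelial markers, 9 had a median of at least 10 CPM, including PAX8 at 336, SLC3A1 at 321, HAVCR1 at 173 and AQP1 at 163 CPM. Of the same list 4 had a median under 1 CPM, with EMX2 and UMOD at 0 counts in all libraries and SLC22A2 and CA9 at 9 and 3 counts in total. The summed colorectal list was 1423 to 1834 CPM in untreated, 943 to 1161 in oxaliplatin and 1042 to 1345 in sorafenib libraries. The summed renal list was 852 to 1295, 1251 to 1311 and 1309 to 1581 CPM. The part of these shifts in the results below was not tested. Of 12 fibroblast and endothelial markers, 11 had a median under 1 CPM, with COL3A1, LUM, VWF, CDH5 and KDR at 0 counts. Their sums were 5.63 to 7, 4.13 to 5.23 and 2.78 to 3.37 CPM in the same order. The immune list of 12 genes had 10 under 1 CPM, with PTPRC at 0 counts, and sums of 26.6 to 48.9, 21.5 to 58.9 and 18.3 to 51 CPM. Most of these sums came from CD68, with a median of 27.8 CPM and a range of 17.4 to 57.4 CPM.

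Promoter sequence was taken from RefSeq (GRCh38.p14), as 250 bases before the gene start to 50 after it, and 8 of the 10 genes matched that table. SDC2 and GPC3 were not matched. Those of 3 matched genes described next are printed: SDC4, the most abundant of the 10 genes, and GPC4 and GPC6, the glypicans whose levels were higher in the oxaliplatin libraries. SDC4 lies at chr20:45348375-45348674, GPC4 at chrX:133415440-133415739, both on the minus strand, and GPC6 at chr13:93226557-93226856 on the plus strand. Capitals mark GC boxes (GGGCGG on either strand) and the TATA box letters TATAAA.
SDC4: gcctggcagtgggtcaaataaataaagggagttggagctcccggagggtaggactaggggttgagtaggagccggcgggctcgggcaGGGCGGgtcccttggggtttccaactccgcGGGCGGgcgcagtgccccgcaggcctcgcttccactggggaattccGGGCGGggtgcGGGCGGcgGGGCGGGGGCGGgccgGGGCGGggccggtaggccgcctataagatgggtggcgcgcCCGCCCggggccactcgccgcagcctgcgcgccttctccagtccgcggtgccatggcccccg
GPC4: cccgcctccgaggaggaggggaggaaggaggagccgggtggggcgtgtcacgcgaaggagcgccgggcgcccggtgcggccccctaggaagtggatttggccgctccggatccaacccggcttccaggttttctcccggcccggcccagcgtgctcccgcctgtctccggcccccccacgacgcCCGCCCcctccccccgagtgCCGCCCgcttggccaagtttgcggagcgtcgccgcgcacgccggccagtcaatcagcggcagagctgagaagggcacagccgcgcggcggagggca
GPC6: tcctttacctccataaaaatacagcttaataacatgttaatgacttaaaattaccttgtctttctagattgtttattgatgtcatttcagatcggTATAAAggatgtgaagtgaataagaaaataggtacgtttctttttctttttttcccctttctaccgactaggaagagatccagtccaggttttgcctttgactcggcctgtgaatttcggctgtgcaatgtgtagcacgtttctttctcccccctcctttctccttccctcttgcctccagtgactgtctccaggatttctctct
The SDC4 window held 8 GC boxes and 33 CpG dinucleotides with a GC content of 74%, and the GPC4 window held 2 GC boxes and 37 CpG dinucleotides at 74.7%. The GPC6 window differed from both, with 6 CpG dinucleotides, a GC content of 40%, no GC box and 1 TATAAA match, at position -155 from the gene start. Over all 35116 promoters of the same length the median was 14 CpG dinucleotides and 58.7% GC, a GC box was found in 45% and TATAAA in 11.5%. Among the other matched genes SDC1 had 27 CpG dinucleotides and 1 GC box, SDC3 46 and 6, GPC1 45 and 4, GPC2 24 and 3, and GPC5 33 and 3. GPC5 also had 1 TATAAA match, on the opposite strand at position -242. None of the 8 windows held the letters TGACG (part of the ATF and CREB site, in 24.6% of all promoters), TGANTCA (AP-1, 7.71%), CACGTG (E-box, 7.26%), GGAATG (TEAD, 14%) or CCGGAAG (ETS, 10.3%) on either strand. A match is a description of letters in this window only.

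SDC4 (ENSG00000124145, chr20:45325288-45348424, GRCh38), a focal adhesion syndecan that works beside integrins and binds protein kinase C alpha, was the most abundant of the 10. Its level was 358, 330 and 340 CPM in untreated, 279, 293 and 299 in oxaliplatin and 405, 364 and 374 in sorafenib libraries. The groups did not overlap in any of the 3 comparisons: every oxaliplatin library was below every untreated one, and every sorafenib library was above them. Means were 343 ± 14.4 (SD, n = 3), 290 ± 10.3 and 381 ± 21.3 CPM. The fitted log2 fold change was -0.24 ± 0.09 (SE) for oxaliplatin and 0.15 ± 0.09 for sorafenib against untreated, and -0.39 ± 0.09 for oxaliplatin against sorafenib. These are small differences, the largest of them a ratio of means of 0.762. In bulk RNA, fewer cells that express a gene and less of its RNA per cell cannot be told apart.

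SDC2 (ENSG00000169439, chr8:96493813-96611790), whose cytoplasmic tail binds PDZ proteins and ezrin, had the widest spread between groups. It stood at 24.6, 32.2 and 33.3 CPM in untreated, 68.8, 86.5 and 71.7 in oxaliplatin and 16.8, 13.3 and 19.8 in sorafenib libraries. The 3 groups were fully separate, with oxaliplatin highest and sorafenib lowest. Means were 30.1 ± 4.72, 75.7 ± 9.48 and 16.6 ± 3.22 CPM (SD, n = 3 each). The log2 fold change was 1.33 ± 0.18 for oxaliplatin and -0.85 ± 0.18 for sorafenib against untreated, so the 2 resistant lines lay on opposite sides of the shared untreated libraries. Between the resistant lines it was 2.19 ± 0.18, a 4.55-fold ratio.

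SDC1 (ENSG00000115884, chr2:20200797-20225433), the main syndecan of epithelia and plasma cells, was lower in both resistant lines. The untreated libraries lay close together at 39.2, 40.7 and 39.4 CPM, the oxaliplatin libraries at 32.2, 28.8 and 38.1, and the sorafenib libraries at 18.3, 30.2 and 25.1. No library of either resistant line reached the lowest untreated value, while the 2 resistant lines overlapped each other. Means were 39.8 ± 0.802, 33 ± 4.68 and 24.5 ± 5.96 CPM (SD, n = 3). The log2 fold change against untreated was -0.27 ± 0.18 with oxaliplatin and -0.70 ± 0.18 with sorafenib. Neither difference was called in the reported edgeR fit, while the one with sorafenib was called under some of the alternatives given below.

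SDC3 (ENSG00000162512, chr1:30869466-30908758), best known from neurons, did not separate the groups. It was 45, 40.9 and 33.5 CPM in untreated, 38.7, 25.3 and 50.2 in oxaliplatin and 43.5, 36.8 and 39 in sorafenib libraries. The oxaliplatin libraries alone spanned the values of both other groups. Log2 fold changes were -0.06 ± 0.22 for oxaliplatin and -0.00 ± 0.22 for sorafenib against untreated.

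**Figure D1:**
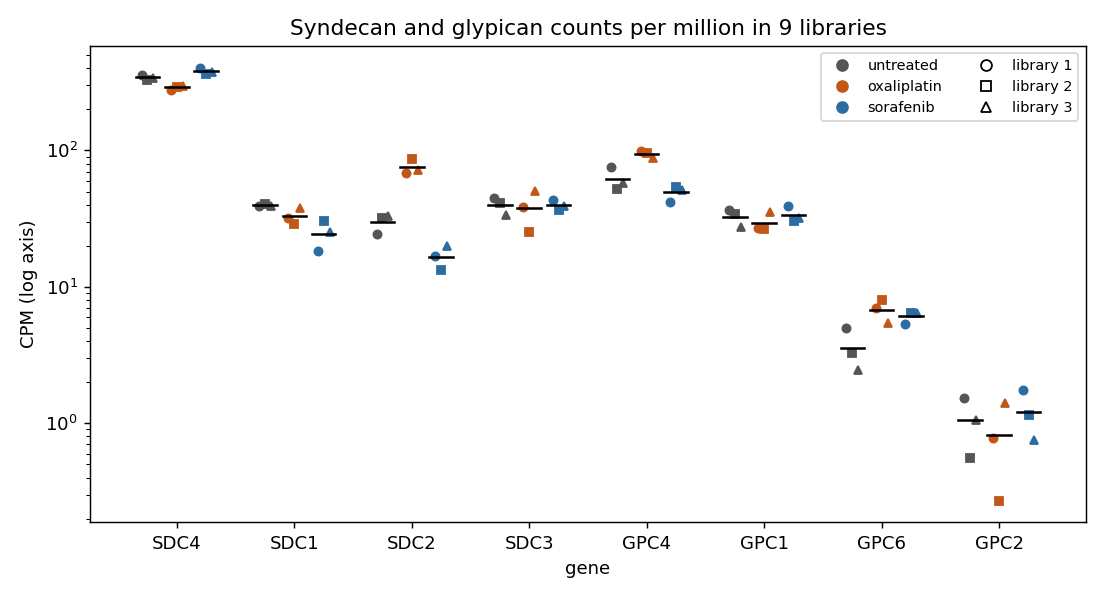
CPM (log axis) of the 8 genes that passed the filter, in each of the 9 libraries. Colour gives the group, marker shape the library number, and bars the group means; SDC2 separates all 3 groups (means 30.1, 75.7 and 16.6 CPM), and SDC4 lies far above the others at 279 to 405 CPM.

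GPC4 (ENSG00000076716, chrX:133300103-133415489), a binder of fibroblast growth factors and Wnt proteins, was the leading glypican. Its values were 75.2, 52.5 and 57.5 CPM in untreated, 98.5, 96.4 and 87.8 in oxaliplatin and 41.7, 54.4 and 51.4 in sorafenib libraries. All oxaliplatin libraries were above all others, and the sorafenib libraries overlapped the untreated ones. Means were 61.7 ± 11.9, 94.2 ± 5.66 and 49.2 ± 6.61 CPM (SD, n = 3). The log2 fold change was 0.61 ± 0.15 for oxaliplatin and -0.33 ± 0.15 for sorafenib against untreated, and 0.94 ± 0.15 between the resistant lines.

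GPC6 (ENSG00000183098, chr13:93226807-94408020), a glypican of bone growth and hedgehog signalling, was low but higher in both resistant lines. It stood at 4.99, 3.26 and 2.44 CPM in untreated, 7.01, 8.03 and 5.41 in oxaliplatin and 5.32, 6.41 and 6.48 in sorafenib libraries. Neither resistant line overlapped the untreated libraries, and untreated library 1 lay just under the lowest sorafenib library. Means were 3.56 ± 1.3, 6.82 ± 1.32 and 6.07 ± 0.65 CPM (SD, n = 3), and log2 fold changes were 0.94 ± 0.27 with oxaliplatin and 0.77 ± 0.27 with sorafenib. Exons of AL354811.1 on the opposite strand cover 476 bases, or 7.36%, of the GPC6 exons. The strand setting of the counting is not given in the sources used here, so reads of the 2 genes there cannot be told apart. No other member shares exonic bases with another annotated gene.

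GPC1 (ENSG00000063660, chr2:240435663-240468076), a widely expressed glypican that binds fibroblast growth factors, overlapped in every comparison. It was 36.4, 34.1 and 27.5 CPM in untreated, 27.1, 26.6 and 35.1 in oxaliplatin and 39.2, 30.6 and 31.8 in sorafenib libraries. Means of 32.7 ± 4.62, 29.6 ± 4.79 and 33.9 ± 4.64 CPM differed by less than their standard deviations. The log2 fold change was -0.14 ± 0.16 for oxaliplatin and 0.05 ± 0.16 for sorafenib against untreated.

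GPC2 (ENSG00000213420, chr7:100169606-100177381), a glypican of the developing nervous system, was near the detection level. Its 9 values ran from 0.271 to 1.74 CPM, with group means of 1.05 ± 0.486, 0.816 ± 0.564 and 1.21 ± 0.498 CPM (SD, n = 3). At this depth no difference was detectable, since the standard error of its log2 fold change was 0.57 for oxaliplatin and 0.56 for sorafenib. GPC3 (ENSG00000147257, chrX:133535745-133985594), an oncofetal glypican of liver that restrains hedgehog signalling, had 6 reads in untreated library 2, 2 and 1 reads in oxaliplatin libraries 1 and 2, 4 reads in sorafenib library 3, and none in the other 5. Its highest level was 0.332 CPM. GPC5 (ENSG00000179399, chr13:91398621-92873682), the closest relative of GPC3, had no read in any library, which allows at most 0.138 to 0.182 CPM per library.

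Levels of different genes were compared per kilobase of exonic length (CPM per kb). Over the 9 libraries SDC4 averaged 129 CPM per kb, higher than 97.9% of the tested genes with a known length. GPC4 followed at 13.8, SDC1 at 9.02, SDC2 at 8.99, SDC3 at 5.55 and GPC1 at 4.92 CPM per kb, while GPC6 at 0.848 and GPC2 at 0.267 lay in the lower part of all genes, at the percentiles 20.5 and 7.09. In the untreated libraries the order was SDC4, GPC4, SDC1, SDC2, SDC3, GPC1, GPC6 and GPC2, with mean levels of 131, 12.4, 11.1, 6.63, 5.63, 5.01, 0.551 and 0.273 CPM per kb. The ranges of GPC4 and SDC1 overlapped there, as did those of SDC2, SDC3 and GPC1, and those of GPC6 and GPC2.

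SDC2 changed its place between the groups. In the oxaliplatin libraries it stood at 16.7 CPM per kb, beside GPC4 at 19 with overlapping ranges and clear of SDC1 at 9.18. In the sorafenib libraries SDC2, at 3.67 CPM per kb, lay below SDC1 at 6.82, SDC3 at 5.63 and GPC1 at 5.2, whose ranges overlapped one another but not that of SDC2. GPC4 at 9.91 was separate from SDC1 in that group, and SDC4 led in all 3 groups with 131, 111 and 146 CPM per kb.

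Summed over a family, the syndecans reached 155 ± 4.73 CPM per kb in untreated, 142 ± 6.03 in oxaliplatin and 162 ± 7.21 in sorafenib libraries (SD, n = 3). Oxaliplatin libraries, at 136 to 148, lay below the untreated ones at 151 to 160, and the sorafenib range of 156 to 170 overlapped the untreated range. SDC4 made up most of each sum, so without it the order was different: 22.7 to 24.2 CPM per kb in untreated, 29.6 to 33.5 in oxaliplatin and 14.9 to 16.9 in sorafenib libraries. SDC2 supplied 3.4 to 4.8% of the syndecan sum in untreated, 10.7 to 13.4% in oxaliplatin and 1.89 to 2.72% in sorafenib libraries. SDC4 supplied 83.9 to 85.8%, 77.4 to 78.5% and 89.4 to 91.2%, so its share was lowest in the oxaliplatin libraries.

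The glypican sum was 18.3 ± 3.09 CPM per kb in untreated, 24.8 ± 0.5 in oxaliplatin and 16.4 ± 0.611 in sorafenib libraries. All oxaliplatin libraries, at 24.3 to 25.3, exceeded all others, and the untreated libraries reached from 16.5 to 21.9. GPC4 gave 72.9 to 78.3% of the glypican sum in the oxaliplatin libraries, against 63.8 to 70.4% in untreated and 53.6 to 64.7% in sorafenib libraries. GPC1 gave 16.4 to 22.2% in oxaliplatin against 25.5 to 31.6% in untreated libraries, without overlap. Syndecans were 87.9 to 90.3% of both families in untreated, 84.3 to 85.9% in oxaliplatin and 90.2 to 91.5% in sorafenib libraries.

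**Figure D2:**
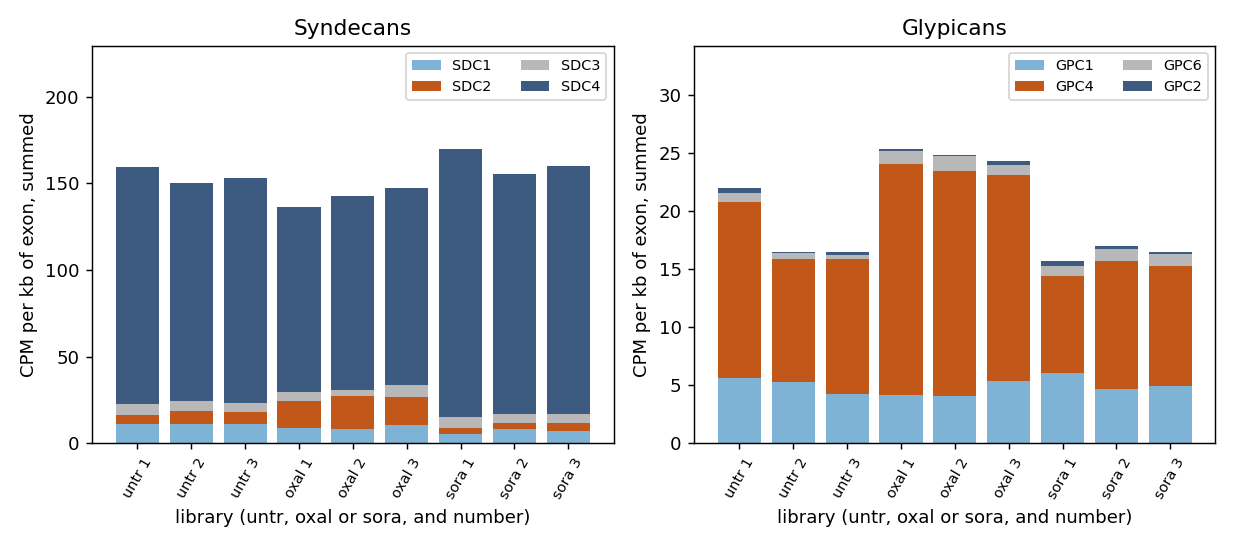
Summed CPM per kb of exon for syndecans (left) and glypicans (right) in each library, as stacked bars coloured by gene; untr, oxal and sora stand for untreated, oxaliplatin and sorafenib. SDC4 fills most of every syndecan bar (77.4 to 91.2%), and the oxaliplatin glypican bars, at 24.3 to 25.3, are the tallest.

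Against all genes tested, the counts of members were as follows, and since the members were chosen on these contrasts nothing is read from the counts. Calls rest on edgeR's quasi-likelihood test with an adjusted p under 0.05. For oxaliplatin against untreated 3 of the 8 tested members were called, SDC2, GPC4 and GPC6, all higher, where 31.7% of all 16159 genes were called (16.2% higher and 15.5% lower). In that comparison 5 members did not overlap between the groups, where 48.1% of all genes did not. For sorafenib against untreated 1 member was called, SDC2, lower, where 4.8% of all genes were called (2.82% higher and 1.97% lower), and 4 members did not overlap, against 29.8% of all genes. Between the resistant lines 3 members were called, SDC2 and GPC4 higher and SDC4 lower with oxaliplatin, where 10.3% of all genes were called (5.2% higher and 5.07% lower), and 3 members did not overlap, against 34.9%. The median log2 fold change of the 8 members was -0.10, 0.03 and 0.05 in the 3 comparisons, and 0.02, 0.00 and -0.01 over all genes tested. Both comparisons with untreated share the same 3 control libraries.

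Single libraries mattered for several of these values. Since the members were chosen with these values known, a call that was kept describes the fit and is no separate support. SDC2 was called in oxaliplatin against untreated and between the resistant lines in all 9 fits that each left out 1 library, with log2 fold changes of 1.21 to 1.41 and 2.05 to 2.33, as was GPC4 between the resistant lines at 0.83 to 1.01. The SDC2 call for sorafenib against untreated ended without sorafenib library 2 or 3 or untreated library 2 or 3, with values of -1.0 to -0.72 over the omissions. It also ended in the fit of those 2 groups alone and with the library number added to the fit as a block. SDC1 in that comparison was called with DESeq2, with no filter on low counts and with a filter at a mean of 1 CPM, and SDC4 for oxaliplatin against untreated was called with DESeq2. GPC4 for oxaliplatin against untreated ended without oxaliplatin library 1 or untreated library 2 or 3 (0.50 to 0.78). GPC6 ended without oxaliplatin library 1 or 2 or untreated library 2 or 3 (0.72 to 1.26), and after the libraries were corrected for GC content and length, where its value was 0.65. GPC6 for sorafenib against untreated was called without untreated library 1, at 1.09. SDC4 between the resistant lines ended without oxaliplatin library 1 or 2 or any of the sorafenib libraries (-0.43 to -0.35). Its call also ended with that block, and when libraries were scaled by their totals alone. Under that scaling the median of all genes for oxaliplatin against untreated moved from 0.02 to 0.13, SDC4 stood at -0.12 and SDC3 turned from -0.06 to 0.05.

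**Figure D3:**
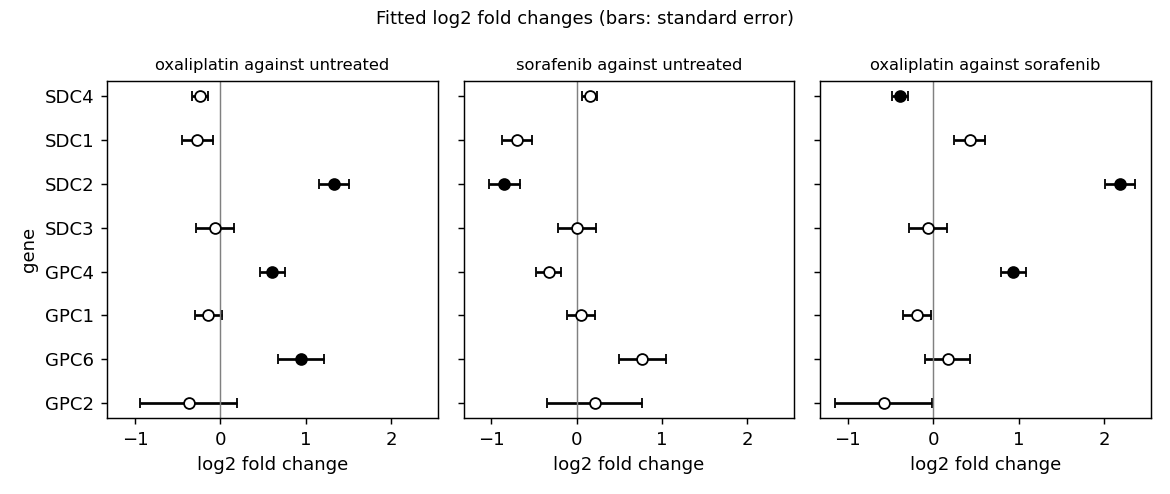
Fitted log2 fold changes (x axis) of the 8 tested members in the 3 comparisons, with bars for the standard error and filled circles for genes called at an adjusted p under 0.05. SDC2 is at 1.33 with oxaliplatin and at -0.85 with sorafenib against untreated, whereas SDC3 and GPC1 stay within 1 standard error of 0 in both.

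The chains that make these core proteins functional are built in steps. The genes of these steps were examined together with those of anchoring, shedding, tail partners, other core proteins, ligands, receptors and matrix proteins. They formed 12 lists holding 223 entries, written with earlier results of these data known. A list is described by its counts beside the shares of all genes given above, 31.7% called with oxaliplatin and 4.8% with sorafenib. Of the 65 calls on these lists with oxaliplatin, 40 were kept in all 9 omissions of a library, and 18 ended with the correction for GC content and length, each of them a gene called higher. Of the 24 calls with sorafenib, 3 were kept in all 9 omissions, 4 ended with that correction and 15 ended in the fit of the 2 groups alone. Adding the library number to the fit as a block ended 11 of the 65 calls with oxaliplatin and 20 of the 24 with sorafenib. Of the 7 genes for the linkage sugars that join a chain to the core, 1 was higher with oxaliplatin and none lower, with a median log2 fold change of -0.21. That gene, XYLT1, one of the enzymes that start the chain, is named because it was the only call on that list, and its level was 1.67 ± 0.269 against 0.493 ± 0.224 CPM (log2 fold change 1.74 ± 0.36, adjusted p = 0.00748, all oxaliplatin libraries higher). With sorafenib none of the 7 was called by edgeR, with 0 higher and 1 lower at an unadjusted p under 0.05 and 0 called by DESeq2.

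Chain polymerisation and sulfation had 12 tested genes of 21. With oxaliplatin 5 rose and 0 fell, 7 and 0 at an unadjusted p under 0.05 and 7 and 0 in DESeq2, with a median of 0.34. Of the 5, 2 kept their call with the correction for GC content and length, 3 with no filter on low counts, and 2 in all 9 omissions. HS3ST1, a 3-O-sulfotransferase, was 7.27, 3.48 and 3.02 CPM in untreated and 11.5, 13 and 9.3 in oxaliplatin libraries. All oxaliplatin libraries were higher, with a log2 fold change of 1.30 ± 0.30 (adjusted p = 0.0113). HS2ST1, the 2-O-sulfotransferase, rose from 67 ± 3.67 to 98.2 ± 6.17 CPM (0.55 ± 0.12, adjusted p = 0.00918, all 3 libraries higher). Its adjusted p was 0.128 after correction for GC content and length, within a range of 0.00108 to 0.128 over all alternatives. EXTL3, which adds the first N-acetylglucosamine, rose from 17.5 ± 4.9 to 43.7 ± 10.3 CPM (1.32 ± 0.33, adjusted p = 0.0176, all 3 higher), a call that ended without oxaliplatin library 1 or untreated library 2 or 3.

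With sorafenib the same list had 0 called higher and 1 lower, with a median of -0.00. At an unadjusted p under 0.05 there were 2 higher and 3 lower, and in DESeq2 0 higher and 3 lower. EXT1, a subunit of the chain polymerase, fell from 157 ± 10.7 to 111 ± 6.15 CPM (-0.50 ± 0.10, adjusted p = 0.0315, all 3 sorafenib libraries lower). That call ended in 6 of the 9 omissions, those of oxaliplatin library 1 or 2, sorafenib library 2 or 3, and untreated library 2 or 3. It also ended in the fit of the 2 groups alone and with the library number as a block. Between the resistant lines EXT1 was 0.66 ± 0.11 higher on the log2 scale with oxaliplatin (adjusted p = 0.00549, all 3 libraries higher), a call kept in all 9 omissions.

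Among the 9 tested of 12 genes that edit or break down heparan sulfate, oxaliplatin gave 4 higher and 1 lower, with a median of 0.31. SULF2, an extracellular sulfatase that removes 6-O-sulfates from finished chains, was 2.99, 3.65 and 3.66 CPM in untreated, 6.92, 7.76 and 8.88 in oxaliplatin and 3.59, 4.6 and 3.86 in sorafenib libraries. The oxaliplatin libraries were clear of both other groups, and the log2 fold change against untreated was 1.19 ± 0.19 (adjusted p = 0.00292). IDS, a lysosomal sulfatase, rose from 12.4 ± 2.1 to 58.3 ± 10.1 CPM with oxaliplatin (2.24 ± 0.40, adjusted p = 0.00591, all 3 higher). IDS has a closely related pseudogene copy, and how reads were split between them is uncertain. With sorafenib the list had 2 higher and 0 lower, with a median of 0.27: IDS spread over 20.5, 46.3 and 72.2 CPM, and IDUA rose from 4.09 ± 0.702 to 7.85 ± 0.829 (0.94 ± 0.20, adjusted p = 0.033, all 3 higher). IDUA was also called higher with oxaliplatin (0.82 ± 0.20, adjusted p = 0.0135, all 3 higher), a call that ended without untreated library 3. With sorafenib the IDUA call ended without oxaliplatin library 1, sorafenib library 2 or 3 or untreated library 2 or 3. The sorafenib call of IDS ended without any one library other than sorafenib library 1 or untreated library 1. Both sorafenib calls also ended in the fit of the 2 groups alone and with the library number as a block, and the IDS call with no filter on low counts.

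Some syndecans also carry chondroitin sulfate. Of 15 tested genes of its synthesis, 3 rose and 1 fell with oxaliplatin and 2 rose and 0 fell with sorafenib, with medians of 0.17 and 0.13. CHST15, which adds a further sulfate to chondroitin sulfate A, was 9.27, 8.46 and 11.1 CPM in untreated, 23.8, 23.2 and 21 in oxaliplatin and 20.9, 23 and 23.8 in sorafenib libraries. Both resistant lines lay above every untreated library and overlapped each other. The log2 fold change was 1.24 ± 0.14 with oxaliplatin (adjusted p = 0.00114) and 1.23 ± 0.14 with sorafenib (adjusted p = 0.00237), against shared controls. Of 14 genes that supply sugar nucleotides and sulfate donors, 3 rose and 1 fell with oxaliplatin, with a median of 0.20. None of the 3 that rose kept its call in all 9 omissions, and 1 kept it with the correction for GC content and length. UGDH, which makes UDP-glucuronic acid, fell from 150 ± 6.58 to 112 ± 4.94 CPM (-0.43 ± 0.09, adjusted p = 0.00708, all 3 lower). With sorafenib none of the 14 was called by edgeR, with 5 higher and 0 lower at an unadjusted p under 0.05 and 2 higher in DESeq2.

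GPI anchor genes, on which glypicans but not syndecans depend, numbered 24 tested, of which 3 rose and 7 fell with oxaliplatin, with a median of -0.24. With the correction for GC content and length 1 of the 3 and 7 of the 7 kept their call, and 2 and 2 kept it in all 9 omissions. With libraries scaled by their totals alone, 3 of the 7 lost it. PIGS fell from 75.8 ± 4.36 to 52.6 ± 6.12 CPM (-0.53 ± 0.11, adjusted p = 0.00833), and GPAA1 from 148 ± 9.07 to 100 ± 12 CPM (-0.56 ± 0.13, adjusted p = 0.0116). Both encode parts of the transamidase that attaches the anchor, and in both all oxaliplatin libraries were below all untreated ones. PIGM, a mannosyltransferase of anchor synthesis, rose from 28.9 ± 1.36 to 43.8 ± 3.92 CPM (0.60 ± 0.12, adjusted p = 0.00634, all 3 higher). With sorafenib 0 rose and 1 fell of the 24, with a median of -0.05.

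Of 11 tested shedding and processing enzymes, 3 rose and 1 fell with oxaliplatin, with a median of -0.08. All 3 that rose kept their call in the 9 omissions, and 0 kept it with the correction for GC content and length. ADAM17, a sheddase of SDC1 and SDC4, was 52.4, 40.9 and 46.6 CPM in untreated, 77.6, 74.4 and 80.3 in oxaliplatin and 51.9, 71.1 and 73.1 in sorafenib libraries. The oxaliplatin libraries were above both other groups (0.73 ± 0.15 against untreated, adjusted p = 0.00674), but with the GC content and length correction the adjusted p was 0.133, in a range of 0.000252 to 0.133 over all alternatives. PCSK5, a proprotein convertase of the family that cuts glypicans, fell from 57.7 ± 14 to 31.7 ± 3.06 CPM (-0.86 ± 0.17, adjusted p = 0.00613, all 3 lower). With sorafenib none was called by edgeR, with 3 higher and 3 lower at an unadjusted p under 0.05 and 3 higher and 1 lower in DESeq2.

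Of 11 tested partners of the syndecan tail, 1 rose and 4 fell with oxaliplatin, with a median of -0.07. EZR, or ezrin, which links SDC2 to actin, was 424, 420 and 453 CPM in untreated, 287, 307 and 341 in oxaliplatin and 453, 430 and 418 in sorafenib libraries. SDC2 itself was highest in the oxaliplatin libraries, where ezrin was lowest (-0.47 ± 0.10, adjusted p = 0.00742, all 3 lower). ARF6, a small GTPase of syndecan recycling, fell from 224 ± 5.18 to 154 ± 10.7 CPM (-0.54 ± 0.10, adjusted p = 0.0057, all 3 lower). CASK, a PDZ scaffold that binds syndecan tails, was the 1 gene that rose with oxaliplatin, from 94.5 ± 15 to 123 ± 6.27 CPM (0.38 ± 0.13, adjusted p = 0.0481, all 3 higher). Of the 9 omissions 7 ended its oxaliplatin call, as did the fit of the 2 groups alone. The oxaliplatin call also ended with RLE in place of TMM factors, with no filter on low counts and with the library number as a block. With sorafenib CASK rose to 164 ± 14.4 CPM (0.80 ± 0.13, adjusted p = 0.0123, all 3 higher) and was the 1 gene called. That call ended without sorafenib library 2 or 3 or untreated library 2 or 3.

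Other proteoglycan core proteins had 11 tested genes of 21. With oxaliplatin 1 rose and 0 fell, 4 and 0 at an unadjusted p under 0.05 and 3 and 0 in DESeq2, with a median of 0.29. HSPG2, or perlecan, a secreted heparan sulfate proteoglycan of basement membranes, rose from 110 ± 19 to 249 ± 32.9 CPM (1.18 ± 0.20, adjusted p = 0.00384, all 3 higher). With sorafenib 3 rose and 0 fell, with a median of 0.44. TGFBR3, or betaglycan, a surface proteoglycan that presents transforming growth factor beta, was 1.47, 1.16 and 1.27 CPM in untreated, 1.33, 1.52 and 0.608 in oxaliplatin and 3.15, 3.8 and 4.07 in sorafenib libraries. The sorafenib libraries stood above both other groups (1.5 ± 0.31 against untreated, adjusted p = 0.0306). That call ended without oxaliplatin library 1, sorafenib library 2 or 3 or untreated library 2 or 3, and with the library number as a block. The call between the resistant lines (-1.65 ± 0.31, adjusted p = 0.0114) was kept in all 9 omissions.

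Heparan sulfate acts through the ligands it binds and the receptors it serves. Of 17 tested heparin-binding ligands of 32, 4 rose and 6 fell with oxaliplatin, with a median of -0.29. With the correction for GC content and length 2 of the 4 and 6 of the 6 kept their call. FGF2, the growth factor most often used to show heparan sulfate dependence, rose from 69.5 ± 7.55 to 110 ± 7.77 CPM (0.66 ± 0.13, adjusted p = 0.00614, all 3 higher). CCN2, a matricellular protein, fell from 15.1 ± 3.53 to 4.52 ± 1.14 CPM (-1.75 ± 0.23, adjusted p = 0.00166), its relative CCN1 from 1045 ± 119 to 574 ± 41.8 CPM (-0.87 ± 0.12, adjusted p = 0.00177), and HBEGF from 9.72 ± 2.58 to 4.38 ± 0.535 CPM (-1.15 ± 0.22, adjusted p = 0.00509), with all oxaliplatin libraries lower in each. With sorafenib 1 ligand of the 17 was called, WNT5A, which rose from 1.05 ± 0.46 to 3.17 ± 0.357 CPM (1.60 ± 0.32, adjusted p = 0.0265, all 3 higher). WNT5A was also among the 4 ligands called higher with oxaliplatin, at 2.7, 2.01 and 2.19 CPM. Its sorafenib call ended without sorafenib library 2 or 3 or untreated library 2 or 3. That call also ended in the fit of the 2 groups alone and with the library number as a block.

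Of 25 tested receptors, 9 rose and 2 fell with oxaliplatin and 7 rose and 1 fell with sorafenib, with medians of 0.38 and 0.17. With the correction for GC content and length 5 of the 9 and 6 of the 7 kept their call, and 2 of the 7 kept it in all 9 omissions. The integrin subunits ITGB3 and ITGB5, which pair with the alpha V subunit that syndecans help to activate, had opposite directions with oxaliplatin. ITGB3 was 7.8, 6.8 and 6.31 CPM in untreated, 18.2, 14.9 and 18.7 in oxaliplatin and 32.5, 46.2 and 40.9 in sorafenib libraries. ITGB5 was 225, 231 and 217 CPM in untreated, 104, 106 and 127 in oxaliplatin and 370, 330 and 331 in sorafenib libraries. Each gene separated all 3 groups, ITGB3 with untreated lowest and ITGB5 with oxaliplatin lowest. ITGB5 thus had the order of SDC4, with sorafenib highest and oxaliplatin lowest, at -0.99 ± 0.11 with oxaliplatin (adjusted p = 0.00103) and 0.61 ± 0.11 with sorafenib (adjusted p = 0.0173). The latter call ended without sorafenib library 2 or 3 or untreated library 2 or 3, and with the library number as a block. ITGB3 rose by 1.31 ± 0.17 on the log2 scale with oxaliplatin (adjusted p = 0.00151) and by 2.51 ± 0.17 with sorafenib (adjusted p = 0.000191).

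ITGB4, the hemidesmosomal subunit that SDC1 binds, rose in both resistant lines, from 14 ± 2.74 to 29.5 ± 1.93 CPM with oxaliplatin (1.08 ± 0.15, adjusted p = 0.00174, all 3 higher) and to 43.3 ± 1.83 with sorafenib (1.63 ± 0.15, adjusted p = 0.00136, all 3 higher). SDC1 had lower values in both, but was called in neither in the reported edgeR fit. With sorafenib it was called under the other filters and DESeq2, as given above. FGFR4, a fibroblast growth factor receptor, fell from 86 ± 6.24 to 53.1 ± 5.47 CPM with oxaliplatin (-0.70 ± 0.12, adjusted p = 0.00373, all 3 lower). PTCH1, the hedgehog receptor, rose from 13.7 ± 1.54 to 25.4 ± 2.51 CPM with oxaliplatin (0.89 ± 0.15, adjusted p = 0.00384, all 3 higher). Of 11 tested heparin-binding matrix proteins, 5 rose and 0 fell with oxaliplatin (5 and 0 also at an unadjusted p under 0.05 and in DESeq2), with a median of 0.49. With sorafenib 3 rose and 2 fell, with a median of 0.27. Of those sorafenib calls, 0 of the 3 and 0 of the 2 were kept in all 9 omissions. With the library number as a block, 0 of the 3 and 0 of the 2 were kept. FN1, or fibronectin, to whose heparin-binding domain SDC4 attaches in focal adhesions, was 13, 8.96 and 9.02 CPM in untreated, 211, 212 and 205 in oxaliplatin and 14.8, 17.8 and 17.7 in sorafenib libraries, while SDC4 was lowest in the oxaliplatin libraries. The log2 fold change of FN1 with oxaliplatin was 4.34 ± 0.17 (adjusted p = 3.30e-06).

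**Figure D4:**
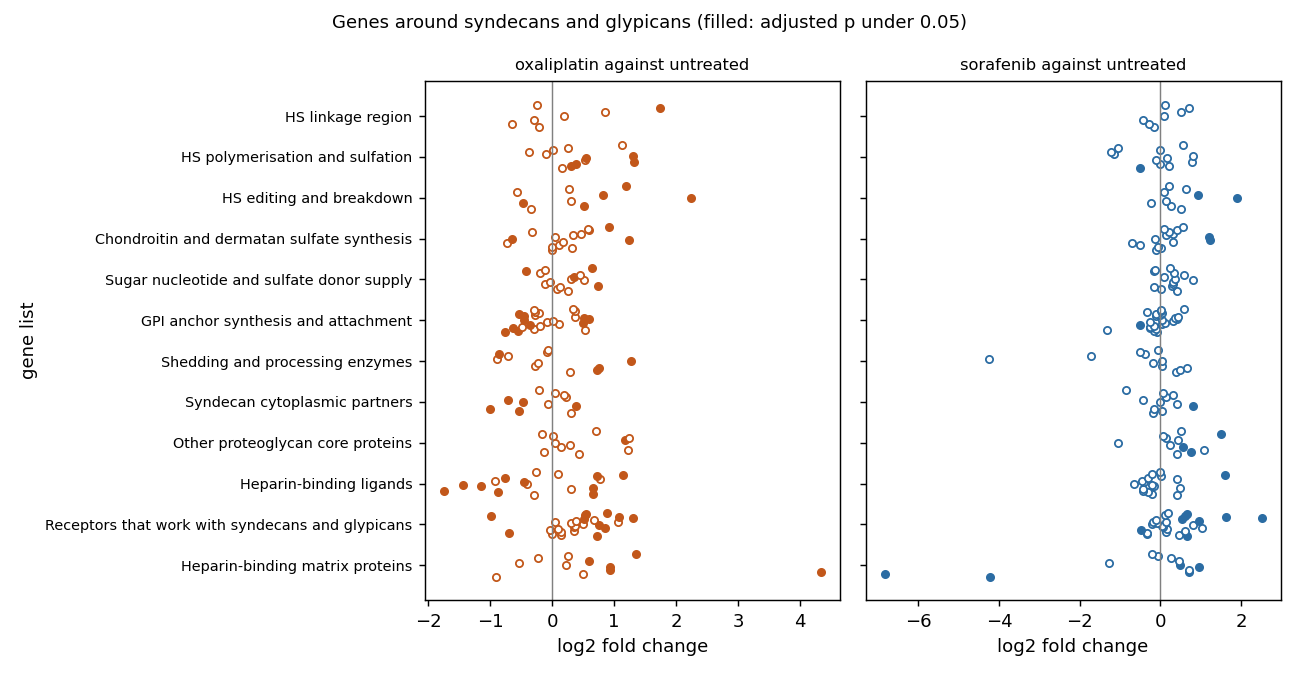
Fitted log2 fold changes (x axis) of the tested genes of the 12 lists, each gene a circle, for oxaliplatin (left) and sorafenib (right) against untreated, filled where the adjusted p is under 0.05. In the oxaliplatin panel the heparan sulfate (HS) polymerisation and sulfation row has 5 filled circles of 12, all right of 0. The GPI anchor row has 10 filled circles of 24, with 7 left of 0. Of all genes tested 31.7% were called with oxaliplatin. With the correction for GC content and length 2 of the 5 kept their call, and of the GPI anchor calls 1 of 3 higher and 7 of 7 lower. COL5A1, the leftmost point of the sorafenib panel, had no read in the sorafenib libraries, so its fitted value is no measure of size.

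Likeness of pattern was measured as Pearson's r of log2 CPM over the 9 libraries among 11082 genes. These libraries share 3 groups, so any gene that separates the groups correlates, and r is a description only. Nearest to SDC2 were P3H2, a prolyl 3-hydroxylase of collagen (r = 0.985), with group means of 21.7 CPM in untreated, 65.5 in oxaliplatin and 12.1 in sorafenib libraries, then ACTR3C (r = 0.981) and GBP1 (r = 0.979). Nearest to SDC4 were TRIOBP, an actin-bundling protein (r = 0.98), with 148, 116 and 178 CPM in the same order, SEPHS2 (r = 0.972) and MINCR (r = 0.971). GPC4 was nearest to ACSM2A (r = 0.984), PML (r = 0.979) and BMP2 (r = 0.979), and BMP2, a heparin-binding ligand, was 5.06, 8.01 and 4.37 CPM. GPC6 was nearest to ZMYM1 (r = 0.983), EIF4A2 (r = 0.981) and ZBTB41 (r = 0.978). For SDC3, GPC1 and GPC2 the nearest genes were TMEM250 (r = 0.952), ISYNA1 (r = 0.946) and FCHSD1 (r = 0.974).

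Among the members themselves SDC2 and GPC4 varied together over the 9 libraries (r = 0.859), and both ran against SDC4 (r = -0.932 and -0.887). SDC3 and GPC1, which did not separate the groups, also varied together (r = 0.786). Within the oxaliplatin group both were highest in library 3, where SDC3 was 50.2 and GPC1 35.1 CPM.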

How the data were processed

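Each of the 9 libraries has whole-number read counts for 60683 genes. The authors counted reads with featureCounts on GRCh38 and deposited the counts without normalization, as the submitters' processing notes say, which also name DESeq2 and give no versions. Not given in the sources used here are the aligner, annotation release, strand setting and treatment of multiply aligned reads. RNA was extracted with TRIzol and mRNA was sequenced on an Illumina NovaSeq, per the labels' protocols.

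Counts were analysed in R 4.3.3. After edgeR 4.0.16's filterByExpr, 16159 genes were fitted with TMM factors (0.944 to 1.05) and a robust quasi-likelihood model over all 9 libraries, each group having its own coefficient (biological coefficient of variation 0.224). The 3 contrasts were tested 2-sidedly, with Benjamini-Hochberg adjustment over the 16159 genes and calls at 0.05. CPM used the TMM factors, errors beside CPM are standard deviations, and a standard error is the log2 fold change over the square root of F. Exonic lengths are union exons of GENCODE v29, and 16017 tested genes had one. Within groups, library pairs differed beyond counting noise (chi-square per degree of freedom 18.7 to 40.4 in 9 pairs).

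The members and lists were chosen with earlier results of these data known. Named were all 10 members, from each list and drug up to 3 called genes per direction of smallest adjusted p with a mean of at least 1 CPM, and the 3 genes (mean 5 CPM or more) of highest correlation with each member averaging 1 CPM or more. The text gives a selection of these. Identity markers were named at a median of at least 10 CPM or at 0 counts. XYLT1 was named after its values were seen. Alternatives were DESeq2 1.42.0, RLE factors, library size alone, no filter, a filter at a mean of 1 CPM, 2 groups only, a replicate block, a 2-fold threshold, each library left out, and, added after the data were seen, a loess correction for GC content and length (span 0.5).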

Additional observations from a re-analysis of the deposited data

How the results depend on the processing

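The direction of no member's log2 fold change that lay over 1 standard error from 0 reversed under the alternatives, and of 136 values per comparison 129, 134 and 133 stayed within 1 standard error of the reported ones. Counts of calls moved more. With at least a 2-fold change required, called genes were 1512 of 5123 for oxaliplatin against untreated, 314 of 775 for sorafenib against untreated and 602 of 1659 between the resistant lines, and called members were 1, 0 and 1. For sorafenib against untreated, called genes were 311 with 2 groups only, 1804 with DESeq2 and 1214 with the GC content and length correction, and called members were 0 with 2 groups only and 2 with no filter, with the filter at a mean of 1 CPM and with DESeq2. Leaving out 1 library at a time gave 2913 to 5403, 113 to 1743 and 572 to 1949 called genes and 1 to 3, 0 to 2 and 2 to 3 called members in the 3 comparisons. The lowest counts were those without oxaliplatin library 1, sorafenib library 3 and oxaliplatin library 1. The cause was not tested. In the order of levels, 2 places differed with raw library sizes, 3 without division by length, and 0 to 2 with a library left out. GPC2, GPC3 and GPC5 are limited by depth.

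Same-numbered libraries did not deviate together (correlations of -0.11 to 0.0299 in 9 pairs, against -0.099 to 0.154 in 18 pairs of different number). No pairing by number was thus seen, but with 3 libraries per group shared handling of same-numbered libraries is not excluded. With the number as a replicate block, called genes were 3773 for oxaliplatin against untreated, 184 for sorafenib against untreated and 809 between the resistant lines, and called members were 3, 0 and 2. Of the calls on the 12 lists the block ended 11 of 65, 20 of 24 and 15 of 31 in the 3 comparisons, among them the sorafenib calls of IDS, IDUA, EXT1, TGFBR3, ITGB5 and WNT5A.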
